A study of Mus musculus with 62 samples.

Results

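The major histocompatibility complex (MHC) of the mouse lies on chromosome 17, and its first 3 Mb start just beyond Daxx, the gene that was deleted in these mice. The region was taken as every listed site on chromosome 17 with a start between 34000000 and 37000000 in mm10. It held 3794 of the 1743368 sites in the 14 tables of changed chromatin sites from this series. Each table compared 2 genotypes for 1 antibody at 1 time, by CUT&Tag, which cuts and tags DNA next to an antibody-bound protein. The antibodies were against the histone variant H3.3, the transcription factor Pu.1, and the histone marks H3K27ac, H3K9me3 and H3K27me3.

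The MHC packs genes for antigen presentation and inflammation into a short, gene-dense stretch. Class II genes encode the surface molecules that show peptides to helper T cells, and the peptide-supply genes Tap1, Tap2, Psmb8 and Psmb9 cut and carry the peptides that class I molecules show to killer T cells. The class III part holds complement, tumour necrosis factor and heat-shock genes, and the H2-Q, H2-T and H2-M blocks hold non-classical class I genes and many near-copies of them. Daxx is a chaperone that places H3.3 at repeats and heterochromatin, H3K9me3 marks silenced repeats, H3K27me3 marks genes held silent by Polycomb, and H3K27ac marks active promoters and enhancers.

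The cells were lineage-negative, c-Kit-positive haematopoietic stem and progenitor cells from the bone marrow of C57BL/6 mice, enriched on magnetic columns. WT mice were Daxx +/+ Cre +/-, Daxx-KO mice were Daxx F/F Cre +/-, and double-knockout (DKO) mice were Daxx F/F and also Pu.1 F/F with the same Cre +/-, so every mouse carried an inducible Cre. At 3 and 24 weeks after induction (w.p.i.) 2 Daxx-KO libraries were set against 2 WT libraries, and at 8 w.p.i. 3 libraries of each of 2 genotypes were compared. The labels do not say which Cre driver the CUT&Tag mice had, and the mouse numbers of 1 antibody differ between the times. At 3 w.p.i. the H3.3 and Pu.1 libraries came from other Daxx-KO mice than the H3K27ac and H3K9me3 libraries, and WT library 1 of H3.3 and of Pu.1 has no mouse number. The floxed Daxx allele was made in C57BL/6N and crossed with C57BL/6J Cre lines, while the Pu.1 F/F allele is on C57BL/6J. Substrain DNA linked to Daxx can therefore go with the genotype in every comparison with WT, and at the MHC it cannot be told apart from the loss of Daxx. DKO and Daxx-KO mice both carry the floxed Daxx allele. The tables list changed sites only, so marker genes could be counted by their gained and lost sites, not by level.

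The mean number of reads per 600-bp window was 1.21 to 33.8 at 3 w.p.i., 0.20 to 3.29 at 8 w.p.i. and 3.97 to 10.3 at 24 w.p.i. In the 3 w.p.i. tables, 1 read in WT library 2 was worth 2.62 normalized counts for H3.3 and 3.2 for Pu.1, and that library was at 0 at 87 of 462 and 73 of 471 MHC sites. DKO library 2 for H3K9me3 had the fewest reads per window. As a check of the genotype, H3K27ac over the Daxx gene body (chr17:33909801-33913400) at 24 w.p.i. was 113 and 93.7 normalized counts in Daxx-KO and 858 and 368 in WT. At 3 w.p.i. the site at chr17:33909601-33911450 had 24.2 and 13.6 against 65.6 and 105. For the mice of the 3 w.p.i. H3.3 and Pu.1 libraries the only Daxx sites were gained sites at the start of the gene (H3.3 82.9 and 122 against 40.7 and 21), which do not check the deletion. The 8 w.p.i. tables listed no site over the Daxx gene body, and the DKO tables none at Spi1, the gene of Pu.1, so the deletions were not checked there either. The label of the region held as well, since sites lay over or at the promoters of class II (H2-Ab1, H2-Aa, H2-Eb1), class I (H2-D1) and class III (C4b, Tnf) genes.

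The sequences that carry the main patterns come from 2 kinds of element. The first kind is stretches covered by an H3K9me3 site at 3, 8 and 24 w.p.i. and lower in Daxx-KO at each time. Up to 300 bases of each are given on the plus strand of mm10, with capitals for bases outside masked repeats. They lie at chr17:34220801-34221100, chr17:35400001-35400300, chr17:35445251-35445550 and chr17:36231051-36231350.
Stretch between Tap2 and H2-Ob: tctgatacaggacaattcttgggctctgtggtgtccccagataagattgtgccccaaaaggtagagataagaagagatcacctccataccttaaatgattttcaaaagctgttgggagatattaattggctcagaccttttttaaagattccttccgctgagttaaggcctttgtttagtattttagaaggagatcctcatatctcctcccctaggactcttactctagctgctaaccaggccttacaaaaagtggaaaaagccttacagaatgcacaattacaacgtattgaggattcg
Stretch between H2-Q4 and H2-Q6: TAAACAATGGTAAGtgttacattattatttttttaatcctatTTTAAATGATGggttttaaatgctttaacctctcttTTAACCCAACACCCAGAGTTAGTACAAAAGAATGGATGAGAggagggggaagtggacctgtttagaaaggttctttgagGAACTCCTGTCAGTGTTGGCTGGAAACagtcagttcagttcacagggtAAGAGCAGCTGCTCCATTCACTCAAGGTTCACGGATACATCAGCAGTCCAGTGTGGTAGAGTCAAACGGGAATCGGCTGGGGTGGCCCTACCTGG
Stretch between H2-Q7 and H2-Q10: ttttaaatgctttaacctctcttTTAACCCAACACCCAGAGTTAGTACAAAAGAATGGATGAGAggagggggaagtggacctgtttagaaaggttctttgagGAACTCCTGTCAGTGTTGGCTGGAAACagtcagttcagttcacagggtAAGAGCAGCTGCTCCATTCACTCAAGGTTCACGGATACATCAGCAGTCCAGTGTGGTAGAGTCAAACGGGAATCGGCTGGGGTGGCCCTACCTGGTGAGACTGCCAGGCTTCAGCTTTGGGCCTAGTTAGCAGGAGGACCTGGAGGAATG
Stretch between H2-T3 and Rpp21: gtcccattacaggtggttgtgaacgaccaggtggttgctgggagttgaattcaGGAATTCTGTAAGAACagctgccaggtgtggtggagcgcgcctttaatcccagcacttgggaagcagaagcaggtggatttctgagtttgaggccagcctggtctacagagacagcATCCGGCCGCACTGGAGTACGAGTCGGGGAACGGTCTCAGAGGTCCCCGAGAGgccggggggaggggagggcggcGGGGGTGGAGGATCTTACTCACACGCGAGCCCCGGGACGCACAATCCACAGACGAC
The Tap2 stretch is 100% repeat, while 37.3%, 27.3% and 58.3% of the bases of the other stretches shown are masked. The whole H2-Q stretches, of 650 and 750 bases, aligned over 595 bases with 593 identical (99.7%), so reads from one copy could have been placed on the other.

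The second kind is promoters where several marks differed. The 250 bases before the RefSeq start (GRCm38.p6) are given in the direction of the gene, in lower case with motif matches in capitals. The motifs searched on both strands were GAGGAA (ETS core of the Pu.1 motif), CCAAT, GAANNGAAA (interferon-response-like) and GAANNTTC (heat-shock-like). Of 31396 autosomal promoters in the table, 23.4%, 33.7%, 6.35% and 6.73% held them, and of 188 promoters in the MHC region 25.5%, 44.1%, 8.51% and 9.57% did. A match is a match of letters only. No capital stretches of these promoters overlap.
H2-D1, chr17:35262844-35263093, plus strand: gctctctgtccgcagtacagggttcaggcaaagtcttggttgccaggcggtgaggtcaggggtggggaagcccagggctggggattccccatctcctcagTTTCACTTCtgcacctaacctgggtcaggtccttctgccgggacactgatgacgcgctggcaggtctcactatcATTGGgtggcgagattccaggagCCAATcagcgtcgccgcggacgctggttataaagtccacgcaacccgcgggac
H2-Q6, chr17:35424600-35424849, plus strand: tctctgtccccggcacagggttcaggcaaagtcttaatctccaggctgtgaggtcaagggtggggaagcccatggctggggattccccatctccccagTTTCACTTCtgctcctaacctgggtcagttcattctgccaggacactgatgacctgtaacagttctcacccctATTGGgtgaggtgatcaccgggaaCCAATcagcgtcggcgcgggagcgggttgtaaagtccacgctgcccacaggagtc
H2-Eb1, chr17:34305617-34305866, plus strand: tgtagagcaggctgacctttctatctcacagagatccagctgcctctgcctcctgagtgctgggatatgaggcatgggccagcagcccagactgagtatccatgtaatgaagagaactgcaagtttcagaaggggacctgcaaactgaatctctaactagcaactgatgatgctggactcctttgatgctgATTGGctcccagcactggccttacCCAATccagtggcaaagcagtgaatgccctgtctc
Tap1, chr17:34187306-34187555, plus strand: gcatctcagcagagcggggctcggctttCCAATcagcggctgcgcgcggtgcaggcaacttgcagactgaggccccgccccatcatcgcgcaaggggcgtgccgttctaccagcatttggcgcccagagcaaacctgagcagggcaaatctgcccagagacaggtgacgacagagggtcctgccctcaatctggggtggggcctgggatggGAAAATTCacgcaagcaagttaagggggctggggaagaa
Hspa1a, chr17:34972157-34972406, minus strand: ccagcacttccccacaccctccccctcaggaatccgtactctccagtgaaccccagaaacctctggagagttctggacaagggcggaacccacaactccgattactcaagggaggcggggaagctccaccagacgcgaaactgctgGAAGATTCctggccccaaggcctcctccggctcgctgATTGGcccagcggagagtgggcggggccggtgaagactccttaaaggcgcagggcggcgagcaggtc
H2-D1 and H2-Q6 each held 1 interferon-response-like element and 2 CCAAT boxes in the same order. H2-Eb1 held 2 CCAAT boxes, and Tap1 and Hspa1a each held 1 CCAAT box and 1 heat-shock-like element. None of the 5 held GAGGAA in this window. H2-Ab1 has no entry in the table.

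A site was called gained where the mean normalized count was higher in the knockout, or in DKO for the DKO tables, and lost where it was lower. The sites had already passed the test with which the authors built the tables, so the shares describe the listed sites and are no second test. Exact permutation of the libraries at 1 site cannot give a two-sided p below 0.33 with 2 against 2 or 0.10 with 3 against 3. The intervals are 95% Wilson intervals for counting error only, and neighbouring sites are not independent.

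At 3 w.p.i. the MHC was mostly a region of gain for H3.3 and Pu.1 and of loss for H3K27ac and H3K9me3. For H3.3, 411 of 462 sites were gained (89%, interval 85.8 to 91.5%), against 58.4% of all autosomal sites. For Pu.1, 398 of 471 were gained (84.5%, 81.0 to 87.5%), against 54.9%. H3K27ac went the other way, with 57 of 203 sites gained (28.1%, 22.3 to 34.6%), against 41.3%. H3K9me3 stood furthest from its background, with 4 of 34 sites gained (11.8%, 4.67 to 26.6%) against 78.9% on the autosomes. In bulk cells a higher count can come from more cells of a type or from more signal per cell, and these cannot be told apart.

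At 24 w.p.i. the intervals of the H3.3, Pu.1 and H3K27me3 shares held the autosomal share, while those of H3K27ac and H3K9me3 lay above it. For H3.3, 227 of 421 sites were gained (53.9%, 49.1 to 58.6%), against 52.6%, and for Pu.1 214 of 438 (48.9%, 44.2 to 53.5%), against 48.2%. H3K27ac was gained at 363 of 623 sites (58.3%, 54.4 to 62.1%), against 42.5%. H3K9me3 was gained at 120 of 190 sites (63.2%, 56.1 to 69.7%), against 48.1%, and H3K27me3 at 167 of 391 (42.7%, 37.9 to 47.7%), against 41.2%.

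At 8 w.p.i. H3K9me3 again leaned towards loss in the MHC. In Daxx-KO against WT 10 of 29 sites were gained (34.5%, 19.9 to 52.7%), against 66% of autosomal sites. In DKO against WT the count was 11 of 29 (37.9%, 22.7 to 56.0%), against 81.2%, and without the shallow DKO library 2 it was 17.2%. In DKO against Daxx-KO it was 5 of 17 (29.4%, 13.3 to 53.1%), against 72.9%, and 23.5% without that library. H3K27me3 sites were mostly gained in DKO, with 229 of 248 sites gained against WT (92.3%, 88.3 to 95%; autosomes 55.1%), while against Daxx-KO 165 of 238 were gained (69.3%, 63.2 to 74.8%; autosomes 65%). The 8 w.p.i. tables of 1 antibody share libraries, so their shares are given side by side only.

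**Figure D1:**
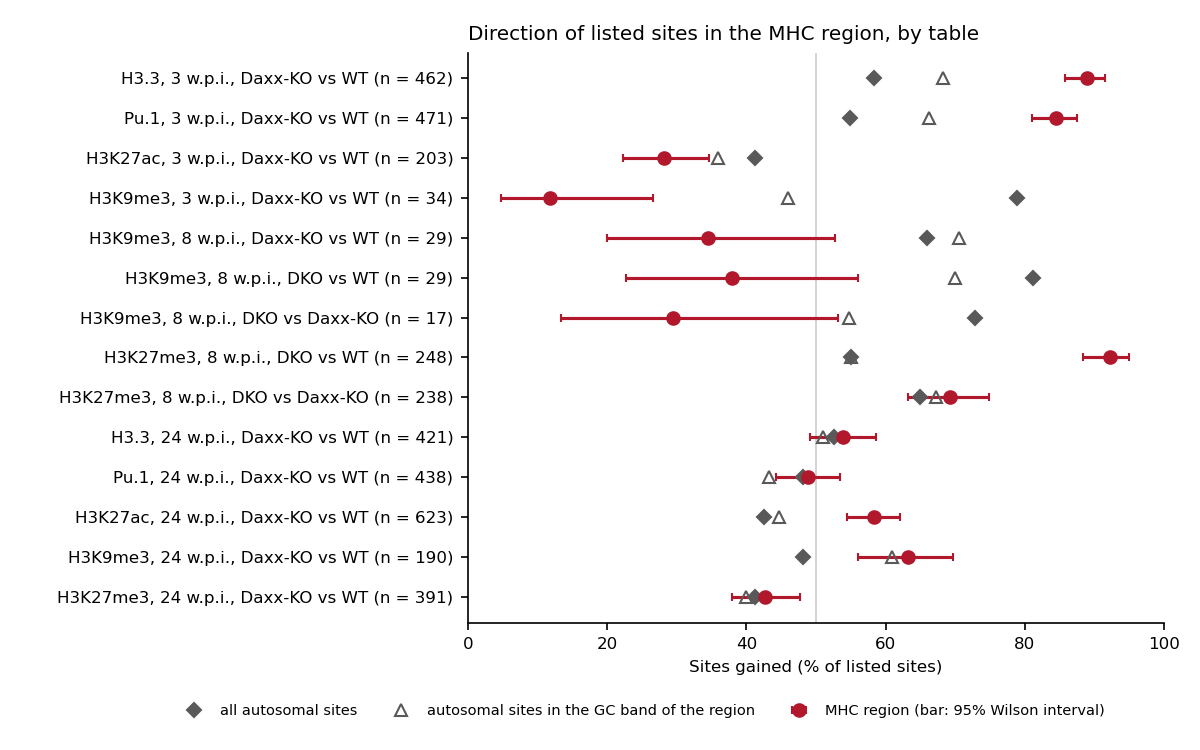
Percentage of listed sites that were gained in the MHC region (red circles, bars show the 95% Wilson interval), on all autosomes (diamonds) and among autosomal sites within the interquartile GC range of the MHC sites (triangles), for the 14 tables with the number of MHC sites in brackets. The red circles lie far right of the diamonds for H3.3 and Pu.1 at 3 w.p.i. and for H3K27me3 in DKO against WT, and far left for H3K9me3 at 3 and 8 w.p.i.

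Most of the listed sites had libraries that did not overlap between the groups, in the MHC as elsewhere. At 3 w.p.i. this held for 459 of 462 H3.3, 464 of 471 Pu.1, 194 of 203 H3K27ac and 34 of 34 H3K9me3 sites, against 98.4%, 98.1%, 97.6% and 99.6% on the autosomes. At 24 w.p.i. it held for 410 of 421 H3.3, 433 of 438 Pu.1, 600 of 623 H3K27ac, 185 of 190 H3K9me3 and 380 of 391 H3K27me3 sites, against 98.3%, 98.2%, 97.3%, 97.2% and 97.6%. At 8 w.p.i. it held for 26 of 29 H3K9me3 sites in Daxx-KO against WT, 20 of 29 in DKO against WT and 14 of 17 in DKO against Daxx-KO, against 89%, 65.6% and 69.6%. For H3K27me3 it held for 211 of 248 sites in DKO against WT and 197 of 238 against Daxx-KO, against 89.4% and 84.2%. Non-overlap was thus the rule in both and does not set the MHC sites apart.

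The region is richer in GC than the autosomes, and for some antibodies base composition moved with the direction of the sites. Its GC content was 47.3% against 41.9%, and it holds the starts of 147 protein-coding genes in 0.122% of the autosomal length. Among autosomal sites within the interquartile GC range of the MHC sites, 68.3% of H3.3, 66.3% of Pu.1, 35.9% of H3K27ac and 46% of H3K9me3 sites were gained at 3 w.p.i. For H3K27me3 in DKO against WT that share was 55.1%, and for H3K9me3 at 24 w.p.i. it was 60.9%. Beside these GC-matched shares, the MHC shares at 3 w.p.i. were 89% (H3.3), 84.5% (Pu.1), 28.1% (H3K27ac) and 11.8% (H3K9me3). They were 92.3% for H3K27me3 in DKO against WT and 63.2% for H3K9me3 at 24 w.p.i. The intervals of the MHC shares hold counting error only and cannot decide the part of GC. Sites were also denser here, at 2.68 times the autosomal density for H3.3 at 3 w.p.i. and 3.53 times for H3K27me3 in DKO against WT, but at 0.487 times for H3K9me3 at 3 w.p.i. Of the H3.3 sites at 3 w.p.i., 44.4% lay within 1 kb of an annotated transcription start, against 16.1% on the autosomes. Among sites that near to a start, 92.7% of H3.3 and 89.1% of Pu.1 sites were gained at 3 w.p.i., against 73.3% and 71.9% on the autosomes. The part of GC and of promoters in the direction was not tested.

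At 3 w.p.i. H3.3 and Pu.1 sites were mostly gained in every block from class II to H2-T, and H3K27ac sites mostly lost. In the class III block, which holds complement, TNF and heat-shock genes, 170 of 174 H3.3 sites and 169 of 179 Pu.1 sites were gained at 3 w.p.i., and 55 of 65 H3K27ac sites were lost. The class II block gained 51 of 55 H3.3 and 61 of 63 Pu.1 sites. The H2-M block, a stretch of non-classical class I genes between H2-T3 and Trim26, was different, with 27 of 42 H3.3 and 33 of 48 Pu.1 sites lost. Beyond it, from Trim26 to H2-M5, 7 of 14 H3.3 and 6 of 13 Pu.1 sites were gained.

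H3K27me3 drew the sharpest borders. At 24 w.p.i. all 26 sites of the class II block were lost in Daxx-KO, while 30 of 36 sites in the neighbouring Btnl block were gained. The class II block is named by position and also holds other genes, among them Ring1, Brd2 and the peptide-supply genes. From Trim26 to H2-M5, 31 of 32 sites were lost. At 8 w.p.i. DKO against WT gained 102 of 103 sites in the H2-M block, 29 of 29 in the H2-T block and 28 of 28 in the Btnl block, and lost 9 of 9 from Trim26 to H2-M5. Against Daxx-KO, DKO gained 105 of 108 H2-M sites but lost 25 of 26 in the H2-D and H2-Q block and 15 of 16 from Trim26 to H2-M5.

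**Figure D2:**
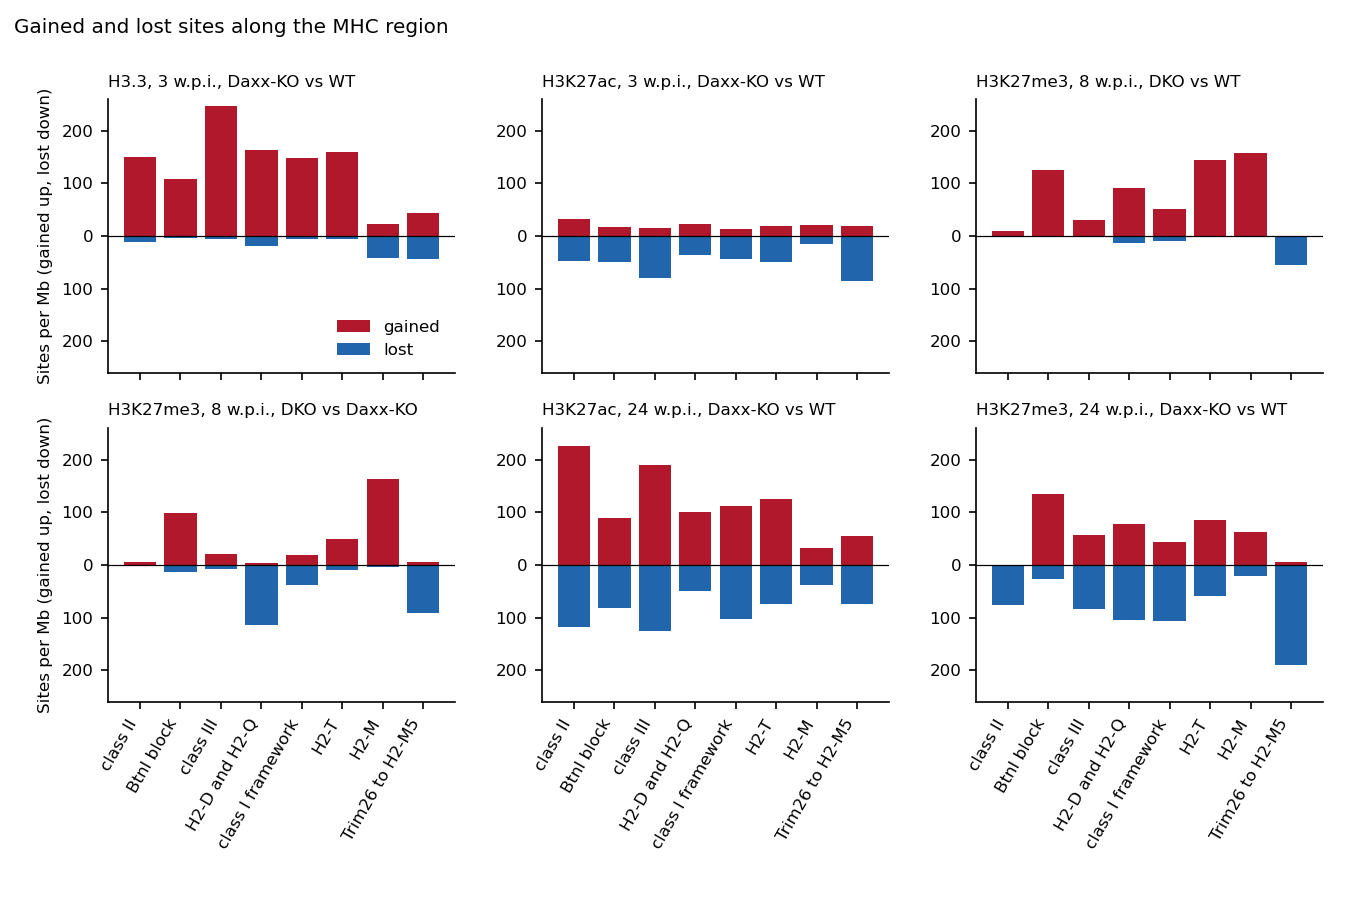
Gained sites (red, upwards) and lost sites (blue, downwards) per Mb in 8 blocks of the MHC region, in their order on the chromosome from class II (nearest to Daxx) to H2-M5, for 6 of the tables. H3.3 at 3 w.p.i. is almost all gain up to the H2-T block, and H3K27me3 at 24 w.p.i. has no gained site in the class II block and 30 gained sites in the Btnl block.

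Windows of 3 Mb on both sides of Daxx showed whether the MHC stood alone on this part of the chromosome. It did not for H3.3, Pu.1 and H3K27ac at 3 w.p.i. or for H3K27ac and H3K9me3 at 24 w.p.i. On the other side of Daxx, 600 of 643 H3.3 sites were gained at 25 to 28 Mb (93.3%) and 309 of 353 at 31 to 34 Mb (87.5%), close to the 89% of the MHC. The window just past the MHC, 37 to 40 Mb, held only 47 H3.3 sites, of which 24 were gained (51.1%). Pu.1 sites were gained at 329 of 396 at 31 to 34 Mb, 398 of 471 in the MHC and 21 of 46 at 37 to 40 Mb, and again at 403 of 512 at 46 to 49 Mb. For H3K9me3 at 3 w.p.i., 35 of 37 sites were lost at 31 to 34 Mb, the window that holds Daxx, and 30 of 34 in the MHC, whereas 110 of 136 were gained at 37 to 40 Mb. More sites were lost than gained also at 25 to 28 Mb (19 of 25 lost), 28 to 31 Mb (7 of 11) and 46 to 49 Mb (14 of 26). In the remaining windows most were gained. At 8 w.p.i. 20 of 28 were lost at 31 to 34 Mb, 19 of 29 in the MHC and 51 of 150 at 37 to 40 Mb. At that time 60 of 108 were lost at 22 to 25 Mb and 21 of 37 at 49 to 52 Mb, and in the remaining windows most were gained. H3K27me3 in DKO against WT was gained at 83 of 85 sites at 31 to 34 Mb and at 84 of 90 at 43 to 46 Mb, beside 229 of 248 in the MHC. H3K27ac sites of 3 w.p.i. were gained at 28.1% in the MHC, 28.1% at 22 to 25 Mb and 34.8% at 31 to 34 Mb. At 37 to 40 Mb that share was 53.8%. H3K27ac sites of 24 w.p.i. were gained at 58.3% in the MHC, 54.2% at 31 to 34 Mb and 54.5% at 37 to 40 Mb. H3K9me3 sites of 24 w.p.i. were gained at 63.2% in the MHC, 67.9% at 25 to 28 Mb and 26.7% at 37 to 40 Mb. Gene and base content differ between these windows, and their part in the direction was not tested.

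**Figure D3:**
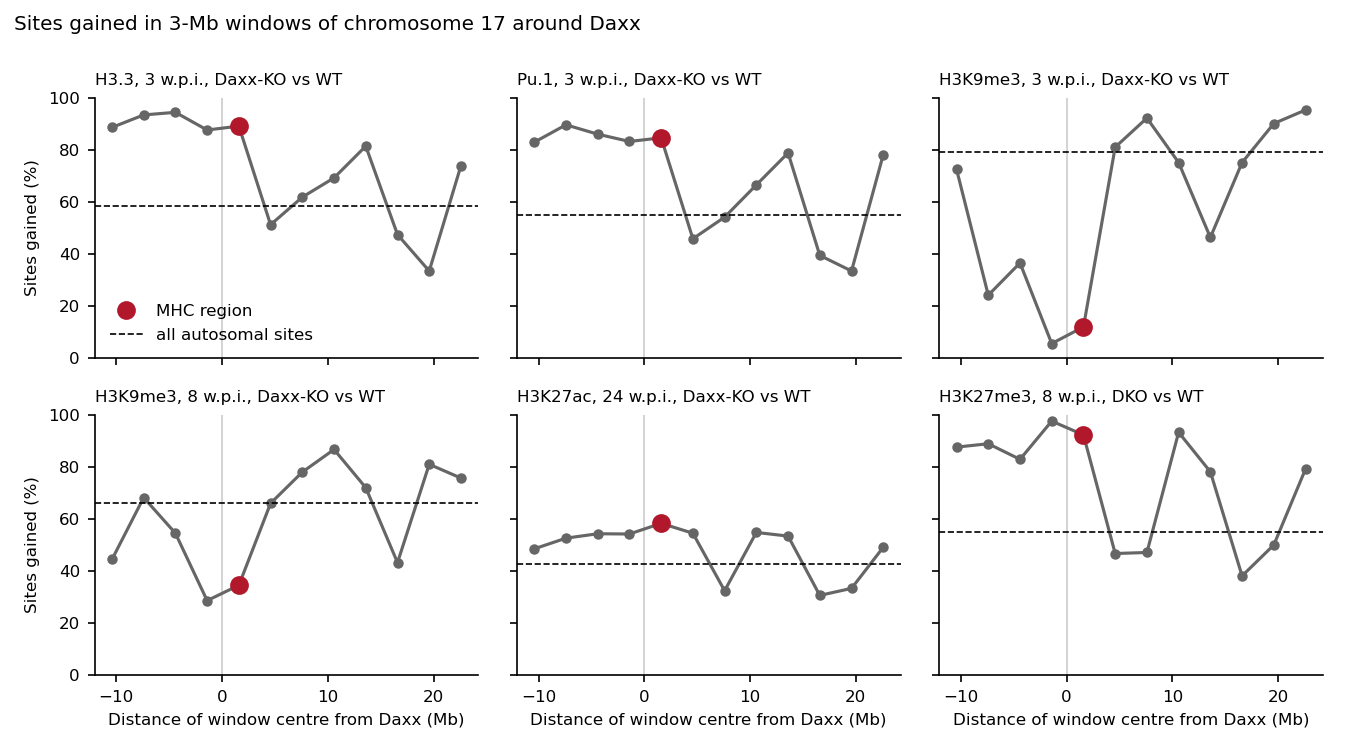
Percentage of listed sites gained in 3-Mb windows of chromosome 17 against the distance of the window centre from Daxx in Mb, for 6 tables, with the MHC window in red and the autosomal share as a dashed line. For H3.3 and Pu.1 at 3 w.p.i. the windows on the far side of Daxx are as high as the MHC, and for H3K9me3 at 3 w.p.i. the 2 windows next to Daxx are the lowest, at 5.41% and 11.8%.

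H3K9me3 loss at the MHC came back at the same places in different mice. Of the overlapping pairs of sites, 13 of 15 were lost at both 3 and 8 w.p.i. (86.7%), 20 of 23 at both 3 and 24 w.p.i. (87%) and 9 of 19 at both 8 and 24 w.p.i. (47.4%). Over the autosomes the shares lost at both times were 24.1%, 27.5% and 27.2%. Most MHC sites of 3 and 8 w.p.i. were lost, so the share lost at both times does not by itself measure recurrence. The same direction, gained or lost, was held by 86.7%, 95.7% and 73.7% of the MHC pairs, against 77.9%, 56.8% and 60% of autosomal pairs. Between 8 and 24 w.p.i. 5 pairs were gained at both times, 4 were gained then lost and 1 was lost then gained. The pairs took in 41.2% of the 3 w.p.i. list and 48.3% of the 8 w.p.i. list, and 55.9% of the 3 w.p.i. list but 11.6% of the longer 24 w.p.i. list. There were 12 stretches covered by a site at all 3 times, and 9 of them were lost each time. At 8 of these 9 the libraries did not overlap at any time. Non-overlap held for 99.6%, 89% and 97.2% of autosomal H3K9me3 sites at 3, 8 and 24 w.p.i., so it does not set these stretches apart. Stretches covered at all 3 times were not counted over the autosomes. Neighbouring stretches can lie under 1 site, and the 9 rest on 8 sites at 3 w.p.i., 7 at 8 w.p.i. and 8 at 24 w.p.i. The counts given for a stretch are those of the listed sites that cover it.

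The deepest loss lay between H2-Q4 and H2-Q6, in an intergenic stretch at chr17:35400001-35400650 next to the pseudogene Gm8750. At 3 w.p.i. the H3K9me3 counts there were 2.33 and 0 in Daxx-KO against 38.5 and 68.4 in WT. At 8 w.p.i. they were 3.62, 1.84 and 0 against 4.74, 8.44 and 31.2. At 24 w.p.i. they were 65.0 and 42.7 against 191 and 236. The Daxx-KO libraries were lower than every WT library at each time. The near-copy between H2-Q7 and H2-Q10, at chr17:35445251-35446000 over the pseudogene Gm8752, had 4.65 and 13.3 against 39.4 and 55.7 at 3 w.p.i. and 31.9 and 96.9 against 222 and 211 at 24 w.p.i. There the 8 w.p.i. libraries overlapped, at 9.04, 5.52 and 0 against 7.9, 25.3 and 43.7.

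Between Tap2 and H2-Ob, whose product regulates peptide loading of class II, 4 stretches within 5 kb were lost each time. At chr17:34220801-34221100 the 3 w.p.i. counts were 20.9 and 18.3 against 76.1 and 60.3. At 8 w.p.i. they were 37.1, 25.8 and 26.7 against 43.5, 92.8 and 74.9, and at 24 w.p.i. 112 and 126 against 207 and 248. The groups did not overlap, with log2 ratios of -1.75, -1.21 and -0.93. Between H2-T3 and Rpp21, at chr17:36231051-36232150, the counts were 48.8 and 33.3 against 271 and 90.5 at 3 w.p.i. and 19.9, 47.8 and 24.1 against 83.8, 69.2 and 67.4 at 8 w.p.i. At 24 w.p.i. the counts were 1877 and 1618 against 2195 and 4170. The remaining lost stretches lay between C4b and Cyp21a1 (chr17:34759151-34759500) and at the pseudogene Gm8810 (chr17:36067401-36067650). Masked repeats made up 0 to 100% of the 9 stretches (median 38.5%), and 3 were masked throughout.

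In DKO against WT, which shares its WT libraries with the Daxx-KO table, 5 of the 9 stretches had a listed site, lost each time, and 4 had none. DKO against Daxx-KO listed none of the 9. At the Tap2 stretch the DKO counts were 23.7, 31.1 and 19.2 against 64.3, 79.3 and 77.3 in WT, and the groups did not overlap.

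The other 3 stretches listed at all times lay between H2-K1, a classical class I gene, and Ring1, a Polycomb ubiquitin ligase, nearest to Daxx, and they turned round at 8 w.p.i. At chr17:34014151-34014600 H3K9me3 was 53.5 and 53.3 in Daxx-KO against 156 and 144 in WT at 3 w.p.i., and 95 and 109 against 140 and 165 at 24 w.p.i. At 8 w.p.i. it was 137, 138 and 81.6 against 52.1, 27 and 69.9, so that every Daxx-KO library was above every WT library. A second stretch, chr17:34019551-34020050, was lost at 3 w.p.i. (33.7 and 30.0 against 119 and 102) and at 24 w.p.i. (93.7 and 62.5 against 146 and 288). At 8 w.p.i. its Daxx-KO counts of 88.6, 101 and 42.8 overlapped the WT counts of 39.5, 34.6 and 46.2. In DKO against Daxx-KO a site over it was lost, at 16.3, 6.54 and 11.7 against 60.1, 60.9 and 31.5.

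**Figure D4:**
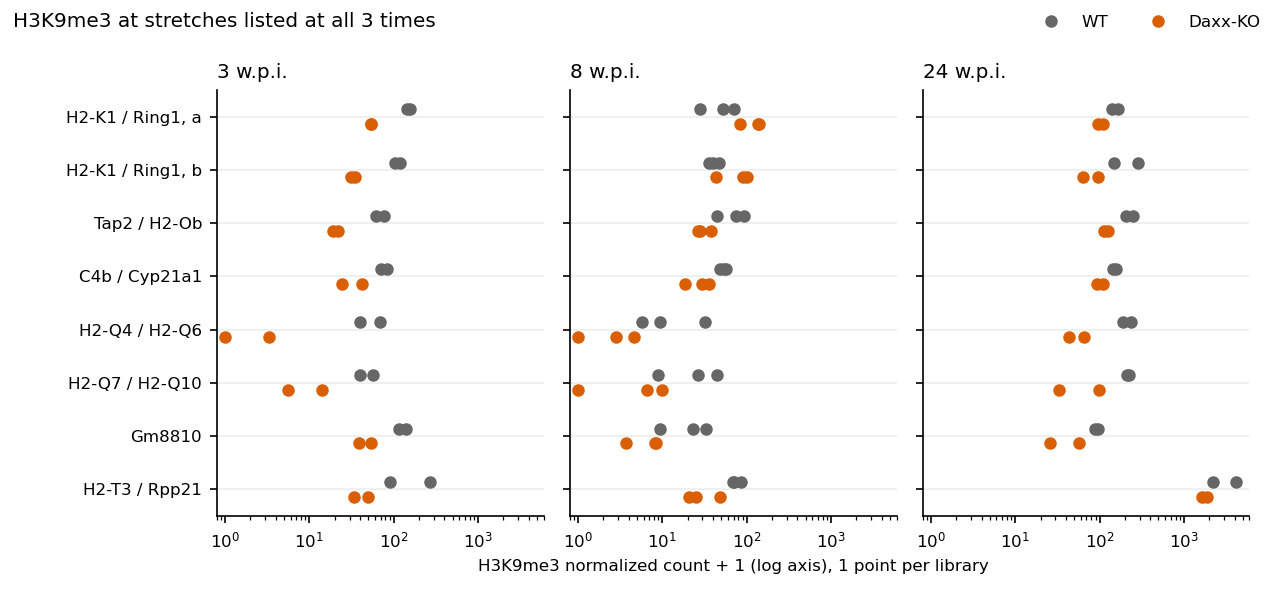
H3K9me3 normalized count plus 1 on a log axis at 8 of the 12 stretches listed at 3, 8 and 24 w.p.i., named by their flanking genes, with 1 point per library for WT (grey) and Daxx-KO (orange). The orange points lie left of the grey points at each time except at the H2-K1 and Ring1 stretches at 8 w.p.i., and the H2-Q7 and H2-Q10 points overlap at 8 w.p.i. Levels compare within a panel only, since each table was normalized by itself.

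Gains of H3K9me3 were few at the early times. The largest at 3 w.p.i. lay between H2-Q10 and Pou5f1 at chr17:35483351-35484000, with 17.4 and 11.7 against 0 and 3.48. A site over it was gained at 24 w.p.i. too (chr17:35479201-35484450), with 1060 and 748 against 297 and 229. A second site beside it was gained at both times, with 55.8 and 51.7 against 7.88 and 24.9 at 3 w.p.i. (chr17:35477901-35478700). At 24 w.p.i. (chr17:35475851-35478350) it had 310 and 329 against 59.1 and 84.3. In Daxx-KO at 8 w.p.i. the largest gain was the site over an intron of Sfta2 and an exon of Gm9573 at chr17:35619351-35620850, with 50.6, 57.9 and 21.4 against 3.16, 1.69 and 16.2. In DKO against Daxx-KO a site at chr17:35619701-35620800 was at 0, 0 and 2.92 against 18.9, 29.5 and 12.3, with no overlap. In H2-Eb1, the site at chr17:34309951-34310550 had 0, 0 and 0 at 8 w.p.i. against 5.53, 6.75 and 7.49, and at chr17:34309101-34310100 it was 2.55 and 16.7 against 82.4 and 71.2 at 24 w.p.i.

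Promoters, taken as 1 kb on either side of any annotated transcription start, were read for 88 genes in 11 lists, of which 87 were annotated. At 3 w.p.i. 62 had an H3.3 site at the promoter, of which 58 had gained sites only and 0 lost sites only. Over all autosomal protein-coding genes with an H3.3 promoter site, 66.7% had gained sites only. For Pu.1 the counts were 61 with a site, 53 with gains only and 4 with losses only (66% gains only on the autosomes). For H3K27ac, 35 had a site, 6 with gains only and 24 with losses only (64.7% losses only on the autosomes). At 24 w.p.i. 71 genes had an H3K27ac promoter site, 32 with gains only and 10 with losses only (32% and 25.4% on the autosomes), and 59 had an H3K27me3 site, 7 with gains only and 47 with losses only (19.2% and 70.2% on the autosomes). These autosomal shares are the background for the counts of each list.

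Marker genes of stem and progenitor cells and of other cell types also had changed sites. As background, 42.5% of all autosomal H3K27ac sites and 41.2% of H3K27me3 sites were gained at 24 w.p.i., and 41.3% of H3K27ac sites at 3 w.p.i. At 24 w.p.i. the 4 neutrophil markers (Elane, Mpo, Ly6g and S100a8) had 12 gained and 0 lost H3K27ac sites. The 2 monocyte or dendritic markers had 2 gained and 15 lost, with 1 and 11 at Csf1r and 1 and 4 at Ciita, the coactivator of class II genes. The 4 stem and progenitor markers had 38 and 30, the 3 B cell markers 20 and 22, and the T cell marker Cd3e 2 and 1. For H3K27me3 at 24 w.p.i. the neutrophil markers had 0 gained and 4 lost sites and the monocyte or dendritic markers 0 and 13, beside 5 and 8 at the stem and progenitor markers, 46 and 37 at the B cell markers and 0 and 5 at Cd3e. At 3 w.p.i. the neutrophil markers had 6 and 0 H3K27ac sites and the monocyte or dendritic markers 4 and 1, beside 32 and 11 at the stem and progenitor markers and 18 and 9 at the B cell markers. Their part in the MHC results was not tested.

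At class II genes the listed H3K27me3 promoter sites of 24 w.p.i. were lost and those of H3K27ac went both ways. Of the 9 members, 3 had an H3K27me3 promoter site (H2-Ab1, H2-DMa and H2-DMb2), each with losses only (background 70.2%). At the start of H2-Ab1, which encodes the beta chain of I-A, H3K27me3 (chr17:34257401-34259450) was 43.1 and 59.8 in Daxx-KO against 161 and 160 in WT, a log2 ratio of -1.62. Both knockout libraries lay well below both WT libraries. H3K27ac at the same start was lower as well, with 35.2 and 38.1 against 80.4 and 75.9 (chr17:34257301-34257950). At a downstream transcript start of H2-Ab1 (chr17:34263501-34265100) it was higher, with 255 and 297 against 177 and 112.

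The partner gene H2-Aa, the alpha chain, had H3K27ac of 43.5 and 62.9 against 215 and 104 at 24 w.p.i. (chr17:34287901-34288850). At 3 w.p.i. a site next to it (chr17:34288751-34289400) had 0 and 0 against 11.8 and 13.2. H3.3 over its start (chr17:34287201-34287900) was 0 and 0 against 36 and 88.4 at 24 w.p.i. H2-Eb1, the beta chain of I-E, had H3K27ac of 23.2 and 61.5 against 115 and 130 upstream of its start (chr17:34303951-34305150), and the site over the start (chr17:34305301-34306350), which takes in the promoter sequence given above, overlapped between the groups at 87.7 and 64.4 against 193 and 69.6. All 9 class II genes had an H3K27ac promoter site at 24 w.p.i., 2 with gains only, 4 with losses only and 3 with both. In the same table Ciita had 1 gained and 4 lost H3K27ac sites, as given above.

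H2-DMa and Brd2 share a region of transcript starts, and there H3K27ac was higher. H2-DMa helps to load peptide on class II, and Brd2 is a reader of acetylated histones. At chr17:34119001-34122350 H3K27ac was 7788 and 7078 against 4579 and 3570 at 24 w.p.i. and the log2 ratio was 0.87. H3K27me3 at chr17:34119351-34121650 was 63.0 and 56.1 against 252 and 164. H3.3 upstream of Brd2 and H2-DMa (chr17:34118251-34119500) was 141 and 101 against 49.1 and 23.6 at 3 w.p.i. Brd2 also had weaker H3K27ac sites that were lost, such as chr17:34113801-34114800 with 35.2 and 23.4 against 72.6 and 81.5. H2-DMb1 and H2-DMb2, which encode the other chain of that loading factor, had lower H3K27ac, with 194 and 192 against 299.4 and 303 at H2-DMb1 (chr17:34152401-34153350) and 203 and 184 against 362 and 241 at H2-DMb2 (chr17:34142201-34142950).

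The peptide-supply genes had higher H3K27ac and lower H3K27me3 at 24 w.p.i. Of the 4 members, H3K27ac at 24 w.p.i. was gained only at 3 and mixed at 1 (background 32% gained only), and H3K27me3 was lost only at 3 (background 70.2%). At the shared start of Tap1, a subunit of the peptide transporter, and Psmb9, an immunoproteasome subunit, H3K27ac (chr17:34186751-34188350) was 2845 and 2207 against 1672 and 1404. H3K27me3 there (chr17:34186951-34187950) was 51.1 and 51.5 against 121 and 114. H3K9me3 (chr17:34187051-34188000) was 42.1 and 70.9 against 12.4 and 0. At Psmb8, the next immunoproteasome subunit, H3K27ac (chr17:34197151-34199500) was 1844 and 1815 against 1147 and 1083, and H3K27me3 (chr17:34197201-34198350) was 23.9 and 31.3 against 78.4 and 126. All Daxx-KO libraries lay on 1 side of the WT libraries at each of these sites.

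Tap2, the other subunit of the transporter, had gained H3.3 and Pu.1 sites at 3 w.p.i., while H3.3 at the other 3 supply genes went both ways. H3.3 at chr17:34201651-34203650 was 764 and 845 against 185 and 215, and Pu.1 at chr17:34202001-34205250 was 702 and 921 against 349 and 371. H3K27ac within Tap2 was lower at 3 w.p.i. (chr17:34204951-34206000), with 46.5 and 32.3 against 70.9 and 110, and higher at 24 w.p.i. (chr17:34204501-34206050), with 1418 and 1579 against 917 and 815.

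At the classical class I gene H2-D1 every listed promoter site of H3.3, Pu.1 and H3K27ac was gained, and that of H3K27me3 was lost. H3.3 at its start (chr17:35262701-35263350) was 82.1 and 47.9 against 19.6 and 21 at 3 w.p.i., and at chr17:35262501-35263150 it was 37.5 and 102 against 5.53 and 18.8 at 24 w.p.i. Pu.1 at chr17:35263201-35264900 was 217 and 169 against 66.9 and 44.8 at 3 w.p.i. H3K27ac over H2-D1 (chr17:35261351-35264800) was 5921 and 5118 against 4155 and 3446 at 24 w.p.i. H3K27me3 (chr17:35262051-35262850) was 9.57 and 5.52 against 41.1 and 35.7. The groups did not overlap at any of these sites. H2-K1, the other classical gene, lies almost wholly outside the region, and its start had H3K27ac of 14.5 and 5.95 against 31.2 and 46.3 at 3 w.p.i. (chr17:34000551-34001250) but 2161 and 1666 against 1324 and 1205 at 24 w.p.i. (chr17:34000301-34001500).

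Among the 17 class Ib genes, 9 had H3.3 promoter sites at 3 w.p.i., each with gains only (background 66.7%). H2-Q6 and H2-Q7 are near-copies, so reads could be split between them. The widest site at any list gene was an H3K27me3 site over H2-Q6 (chr17:35424001-35433650), with 4732 and 3492 against 7865 and 8911 at 24 w.p.i., and over H2-Q7 (chr17:35439901-35445950) it was 3135 and 2295 against 4715 and 5399. H3K27ac over the start of H2-Q6 (chr17:35424201-35426550) was 1176 and 1127 against 762 and 631, and a smaller site before it (chr17:35423801-35424550) was lost, at 91.4 and 103 against 127 and 183. In DKO the H3K27me3 counts at H2-Q7 (chr17:35439101-35439700) were 37.7, 26.1 and 8.68 against 118, 71.7 and 45.4 in Daxx-KO, with no overlap. At H2-Q6 (chr17:35424251-35425300) they were 142, 26.1 and 27.3 against 127, 122 and 103, where DKO library 1 lay above the Daxx-KO libraries.

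In H2-T23, the mouse counterpart of the HLA-E class of molecules, H3K27ac (chr17:36031001-36032750) was 1474 and 1458 against 830 and 940 at 24 w.p.i., after 32 and 22.9 against 49.4 and 72.8 at 3 w.p.i. (chr17:36031851-36032450). A second, weaker H3K27ac site at H2-T23 (chr17:36033701-36034350) was lost at 24 w.p.i., with 15.7 and 22 against 42.5 and 49.8. In the H2-M block the H3K27me3 sites of DKO were low in counts. The largest gain over WT, between H2-M11 and H2-M9 (chr17:36576351-36577200), was 9.06, 23.6 and 24.0 against 0, 0 and 0. In the same block lay the largest H3.3 loss at 3 w.p.i., between H2-M1 and H2-M10.5 (chr17:36688251-36688950), with 0 and 1.47 against 58.2 and 39.3.

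In the TNF cluster the listed H3K27ac promoter sites were lost at 3 w.p.i. and mostly gained at 24 w.p.i. Of the 7 members, 5 had such a site at 3 w.p.i., each with losses only (background 64.7%), and at 24 w.p.i. 6 had one, 5 with gains only (background 32%). Tnf encodes tumour necrosis factor, and its start (chr17:35201151-35202000) had 16.5 and 9.34 against 33.3 and 53 at 3 w.p.i. At 24 w.p.i. (chr17:35199801-35202850) it had 3268 and 2908 against 1969 and 1827. H3K27me3 over Tnf (chr17:35200001-35201150) was 25.5 and 20.2 against 84.0 and 64.3.

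Ltb, which encodes the membrane anchor of lymphotoxin, followed the same course. Its H3K27ac was 9.69 and 12.7 against 31.2 and 54.1 at 3 w.p.i. (chr17:35194051-35194800) and 3807 and 3113 against 1693 and 1607 at 24 w.p.i. (chr17:35192851-35196600). H3K27me3 at Ltb in DKO (chr17:35194651-35196000) was 322, 110 and 15.3 against 28, 19.9 and 6.71 in WT, so DKO library 3 lay within the WT range. Aif1, a macrophage gene of the cluster, was the exception at 24 w.p.i., with H3K27ac of 344 and 558 against 849 and 707 (chr17:35172551-35174400).

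The heat-shock genes Hspa1a and Hspa1b, which encode the inducible Hsp70 chaperones, had the largest gains of H3.3 (Hspa1b) and of Pu.1 (Hspa1a) at 3 w.p.i. among the list genes, by log2 ratio. H3.3 over Hspa1b (chr17:34957351-34959450) was 322 and 183 against 16.1 and 15.7 at 3 w.p.i., a log2 ratio of 3.90. H3.3 over Hspa1a (chr17:34970001-34971700) was 237 and 166 against 20.3 and 15.7, and Pu.1 (chr17:34970201-34972050) was 209 and 161 against 17.2 and 9.59. The genes are near-copies, so their reads could have been split or placed on either one. At 24 w.p.i. H3K27ac at Hspa1b (chr17:34958201-34959250) was 264 and 104 against 72.6 and 15.8, while a site before it (chr17:34959601-34960400) was lost, at 115 and 79.0 against 211 and 195. At Hspa1a it was 224 and 90.8 against 72.6 and 70.4 (chr17:34971351-34972250). Pu.1 within Hspa1a was 34.1 and 35.5 against 5.76 and 2.11 at 24 w.p.i. (chr17:34969901-34970650), so it was gained at both times.

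Complement genes held sites of most marks. Of the 4 members, 4 had Pu.1 promoter sites at 3 w.p.i., each with gains only (background 66%), and 3 of the 4 H3K27me3 promoters at 24 w.p.i. had gains only (background 19.2%). C4b encodes a component of the classical pathway, and Pu.1 within it was 90.6 and 147 against 23.5 and 6.39 at 3 w.p.i. (chr17:34735951-34736750) and 207 and 116 against 4.32 and 34.7 at 24 w.p.i. (chr17:34735951-34737350). H3K27me3 at C4b (chr17:34736051-34737300) was 363 and 386 against 229 and 216. The direction of H3K27me3 at C4b is the reverse of that at H2-D1, Tap1 and Tnf.

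Of the 6 chromatin genes, 6 had an H3K27me3 promoter site at 24 w.p.i., each with losses only, against 70.2% of all genes with such a site. At Ring1 (chr17:34024151-34025100) it was 7.98 and 12.9 against 65.4 and 45.7. H3K27ac at Ring1 (chr17:34024551-34025300) was 970 and 792 against 480 and 224. At Ehmt2, which encodes the H3K9 methyltransferase G9a, H3K27me3 (chr17:34910751-34912000) was 22.3 and 14.7 against 103 and 68.5. The start of Ehmt2 had H3K27ac of 2.91 and 0 against 9.67 and 12.1 at 3 w.p.i. (chr17:34898401-34899000), and Pu.1 just before it was 92.7 and 62.7 against 23 and 8.42 at 24 w.p.i. (chr17:34897651-34898450).

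In the class I framework, the genes that lie between the class I blocks, 12 of 14 genes with an H3K27me3 promoter site at 24 w.p.i. had losses only (background 70.2%). Ier3, an immediate-early gene, had H3K27ac of 3612 and 3422 against 1800 and 1791 (chr17:35820551-35825100), and H3.3 upstream of it was 0 and 0 against 59.0 and 92.1 (chr17:35820351-35821200). Pou5f1, a pluripotency factor silent in blood cells, had H3K27me3 of 842 and 820 against 960 and 1208 at 24 w.p.i. (chr17:35505151-35506250). In DKO it was 75.3, 36.2 and 67 against 105, 126 and 102 in Daxx-KO (chr17:35506451-35507250), with no overlap. All 5 Trim genes with an H3K27me3 promoter site at 24 w.p.i. had losses only (background 70.2%), and 3 of 3 had losses only in DKO against Daxx-KO (background 51%). Between Trim10 and Trim15 (chr17:36868151-36869550) the DKO counts were 75.3, 44.2 and 31 against 311, 84.8 and 126.

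H3K27ac and H3K27me3 came from the same mice at 24 w.p.i., and their promoter states were set side by side for the 85 protein-coding list genes. Of 49 genes with a site of both marks, 20 had H3K27ac gained only with H3K27me3 lost only (40.8%), 1 had the reverse, and 2 had both gained and 2 both lost. Over all autosomal protein-coding genes the first share was 24.2%. The 20 genes were Psmb8, Psmb9, H2-D1, H2-Q4, H2-Q7, Cfb, Tnf, Lta, Ltb, Nfkbil1, Ring1, Pbx2, Tnxb, Clic1, Ier3, Flot1, Tubb5, Gnl1, Ppp1r10 and Trim39.

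**Figure D5:**
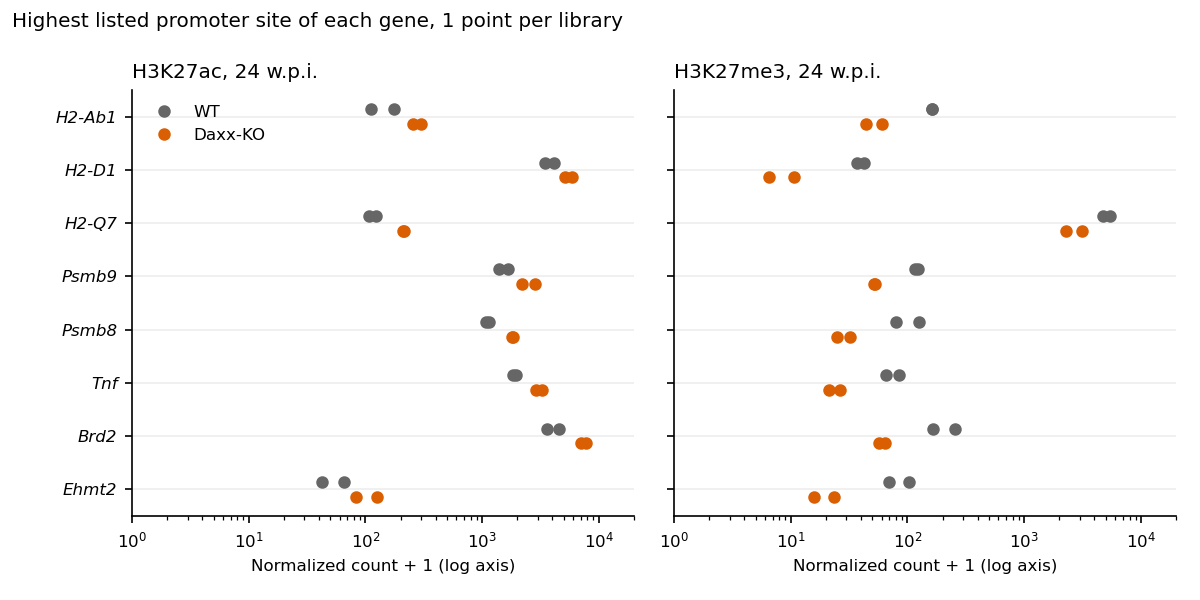
Normalized count plus 1 on a log axis for H3K27ac (left) and H3K27me3 (right) at 24 w.p.i., at the listed promoter site with the highest group mean for each of 8 genes, 1 point per library for WT (grey) and Daxx-KO (orange). Orange lies right of grey for H3K27ac and left of grey for H3K27me3 at all 8 sites shown, though H2-Ab1, Brd2 and Ehmt2 also had H3K27ac sites with the opposite direction. The 8 genes are a selection, and of 49 list genes with both marks 20 had H3K27ac gained only with H3K27me3 lost only. H2-Ab1, Brd2 and Ehmt2 are not among them. At H2-Ab1 and Ehmt2 the sites of the 2 marks lie at different places in the gene.

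Sites of H3.3, Pu.1 and H3K27ac listed at both 3 and 24 w.p.i. often went opposite ways. Of 140 overlapping H3.3 pairs, 79 were gained at both times, 6 lost at both, 48 gained then lost and 7 lost then gained, so 60.7% had the same direction against 51.2% on the autosomes. For Pu.1 it was 49.1% of 167 pairs against 48.1%. For H3K27ac 47.4% of 133 pairs had the same direction against 59.8%, and 56 pairs were lost and then gained. Of 31 list genes with an H3K27ac promoter site at both times, 9 had losses only at 3 w.p.i. and gains only at 24 w.p.i. (29%), against 1190 of 7414 autosomal protein-coding genes (16.1%). They were Tap2, H2-K1, Tnf, Lta, Ltb, Lst1, Tubb5, Ppp1r10 and Trim39. The mouse numbers differ between the times, and whether the difference came from time or from the animals was not tested. The largest H3.3 gains seen at both times were between H2-Q4 and H2-Q6 (97.1 and 68.5 against 21 and 0 at chr17:35387101-35387900, then 83.9 and 40.8 against 1.84 and 13.2 at chr17:35387301-35388050) and in an intron of Tnxb (236 and 287 against 68.7 and 5.24 at chr17:34679501-34681700, then 230 and 65.7 against 0 and 14.1 at chr17:34679701-34680850).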

How the data were processed

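The part is defined by position: listed sites on chromosome 17 with a start between 34000000 and 37000000 (mm10). Its members and the gene lists were chosen with earlier results of these data known. The series has 62 CUT&Tag libraries, of which 54 are in the 14 tables used. The 8 DKO libraries of 24 w.p.i. are in none of them, and 1 table of 8 w.p.i. whose controls belong to another antibody was not used. Per the labels, reads were made with CASAVA 1.8.4, trimmed with cutadapt 1.13, aligned with STAR 2.5.3 and handled with bedtools. Per the file headers, the authors ran diffReps 1.55.6 on the reads of each library with 600-bp windows, steps of 50 bp, a fragment size of 100 bp and the negative binomial test with a window p cutoff of 0.0001. The deposited signal is the read count of each library at a site, divided by the normalization constant of that library in that table, and the deposited mean signal of each group was used only to check that these per-library values were read correctly. The authors' own columns of fold change and p-value were not used. Values compare only within a table. The authors left out the sex chromosomes at 24 w.p.i.

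Direction came from the group means, log2 ratios used a pseudocount of 1, and shares carry 95% Wilson intervals (counting error only). Starts and exons are from GENCODE M21, and sequences and repeat masks from RefSeq GRCm38.p6, which has the chromosomes of mm10. The promoter table held 74 of the 88 list genes. Named sites were, besides the list genes, up to 2 sites per direction and table with the largest log2 ratio among sites with no overlap of libraries and a higher group mean of at least 10, and the 3 sites per pair of times with the largest smaller ratio. Stretches listed at 3 times, and a few sites without overlap named for contrast, were added after their values were seen. Libraries of 1 group carry different mouse labels, of which those of WT library 1 of H3.3 and of Pu.1 at 3 w.p.i. give no number. The rules were tested on simulated data. Python 3.11.15, numpy 2.4.6, pandas 2.3.3, scipy 1.17.1, Biopython 1.88 and matplotlib 3.10.9 were used.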

Additional observations from a re-analysis of the deposited data

Results flagged for a closer look

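Several kinds of site went one way at 1 time and the other way at another, with no overlap of the libraries at either time. The difference between the times was not tested, and the mouse numbers differ. For H3.3, 54 of 140 overlapping pairs of 3 and 24 w.p.i. were of this kind. For Pu.1 it was 83 of 167, and for H3K27ac 67 of 133. For H3K9me3 it was 1 of 15 at 3 and 8 w.p.i. and 1 of 23 at 3 and 24 w.p.i. At 8 and 24 w.p.i. it was 3 of 19. Opposite directions, with or without overlap of libraries, were less common than on the autosomes for H3.3 and H3K9me3. They were near the autosomal share for Pu.1 and more common for H3K27ac (same direction 47.4% against 59.8%). Autosomal pairs without overlap of libraries were not counted. The H3K9me3 pair of 3 and 8 w.p.i. is the stretch between H2-K1 and Ring1 that was lower in Daxx-KO at 3 w.p.i. and higher at 8 w.p.i. Groups of 2 or 3 libraries are too small for a check of single outlying libraries.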

How the results depend on the processing

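Of 84 alternatives to the shares of gained sites, 77 stayed within the interval of the share reported and 7 moved out of it. Merging neighbouring sites gave 85.6% for H3.3 and 80.4% for Pu.1 at 3 w.p.i., and sites over 1 kb from a start (chosen after seeing the data) gave 80.1% for Pu.1 at 3 w.p.i. and 50.0% for H3K27me3 at 24 w.p.i. An absolute log2 ratio of at least 1 gave 52.3% for H3K27ac and 32% for H3K27me3 at 24 w.p.i. Only non-overlapping sites gave 15.0% for H3K9me3 in DKO against WT. Leaving out 1 library at a time gave 17.2 to 37.9% in that comparison, the lowest without DKO library 2. Elsewhere the ranges were 88.7 to 89% (H3.3), 84.3 to 85.6% (Pu.1), 25.1 to 28.1% (H3K27ac) and 11.8% (H3K9me3) at 3 w.p.i. The same leave-outs gave 34.5% for H3K9me3 in Daxx-KO at 8 w.p.i., 23.5 to 29.4% in DKO against Daxx-KO, and 90.7 to 92.3% and 68.9 to 69.3% for H3K27me3. At 24 w.p.i. they gave 53 to 54.4% (H3.3), 48.4 to 49.1% (Pu.1), 57.8 to 59.1% (H3K27ac), 62.6 to 63.7% (H3K9me3) and 42.2 to 43.7% (H3K27me3). Where the libraries of the groups did not overlap, leaving out 1 library could not change the direction of a site. Most listed sites were of that kind, so the narrow ranges were largely fixed in advance and say little about stability. Same-direction shares between times stayed within their intervals in 23 of 24 alternatives, and with group means of at least 20 the H3K9me3 share of 3 and 24 w.p.i. was 100%. Genes with a promoter site changed by over 1.5 times where few had one. With 3 kb the counts were 4 for H3K9me3 at 3 w.p.i., 3 at 8 w.p.i. in Daxx-KO and 3 in DKO against WT, and 22 for H3K27me3 in DKO against WT. With 250 bp they were 0 for H3K9me3 at 3 w.p.i. and 0 in Daxx-KO at 8 w.p.i., 9 for H3K27me3 in DKO against WT, and 21 for H3K9me3 at 24 w.p.i. No paired analysis was possible because no value comes from a test of the libraries. The cause of these changes was not tested.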
